A study of Arabidopsis thaliana with 12 samples.

Results

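This account describes what changed in ground tissue cells of the Arabidopsis root when the transcription factor JKD was driven there, across all genes on the array. The comparison uses the 3 arrays labelled as a UAS copy of JKD driven in the J0571 line, set against the 3 arrays of J0571 alone, which is 6 of the 12 arrays of the series. J0571, in ecotype C24, is an enhancer trap: its GAL4 and GFP are made in cortex and endodermis, which together form the ground tissue. Both groups carry the J0571 trap in an otherwise wild-type background. Cells were sorted by green fluorescence from root tips of seedlings at 5 days, and the replicates are labelled biological. GAL4 of the trap sets where and when the JKD copy is made, and the labels do not say how many transgenic lines were used. The other 6 arrays hold the BLJ and SCR lines, built in the same way, and enter the shared estimate of the spread. The table holds 22801 probe sets, of which 55 are control probe sets and 15922 passed the filter on dim ones and were tested. Of the 22746 that remain without the control probe sets, 13513 have 1 gene, 503 have several and 8730 are unnamed here, so the lists below cover only part of each pathway.

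JKD (JACKDAW) is a zinc finger protein of the BIRD family. In the root it binds SHR and SCR, the GRAS proteins that pattern the ground tissue, keeps the mobile SHR within the endodermal layer and takes part in the divisions that separate cortex from endodermis. BLJ, another BIRD protein, acts in the same tissue.

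The 3 JKD arrays were more spread out than the 3 control arrays before normalization. The SD of the deposited log2 values was 1.009, 0.818 and 0.940 on JKD 1, 2 and 3, against 0.705, 0.685 and 0.711 on control 1, 2 and 3. A wide spread was not limited to the JKD line: the SD was 0.878 to 0.975 on the BLJ arrays, and 0.908, 0.676 and 0.911 on SCR 1, 2 and 3. Array medians were 0.785 to 0.825 in the JKD line and 0.855 to 0.866 in the control. On the deposited log2 values, before normalization, arrays correlated at Pearson's r of 0.983 to 0.989 within the JKD line and 0.969 to 0.989 within the control. Between them r was 0.952 to 0.987 (across probe sets, not independent of one another). Intensities are in the arbitrary units of the deposited table, and 66.1% of them lie under 1. Fold changes are on the log2(intensity + 0.702) scale, which understates the change of dim genes. With 3 arrays a group, precision is limited by their number.

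The probe set of JKD (AT5G03150) did not pass the test and was not higher on the arrays of the line that drives JKD. Its normalized intensity was 0.845, 0.839 and 0.831 in the JKD line, against 0.841, 0.900 and 0.837 in the control, in replicate order. The groups overlapped, and the log2 fold change was −0.02 ± 0.02 (SE; limma adjusted p = 0.702). Where the probe set lies relative to the transcript of the UAS copy is not given in the sources used here, so it checks neither the construct nor the labels, and the line is called JKD by its label. The probe set of SCR is unnamed here. BLJ (AT1G14580), the BIRD gene driven in a sister line, had 0.954, 0.925 and 0.946 in the JKD line, against 0.946, 0.913 and 0.911 in the control, a log2 fold change of 0.02 that did not pass.

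In limma's test 437 of 15922 probe sets were called at an adjusted p under 0.05, which is 2.74%. Of these, 138 were higher in the JKD line (0.867% of those tested) and 299 were lower (1.88%). The changes were small: the median size of the log2 fold change among the called was 0.15, and 3041 probe sets had an unadjusted p under 0.05. The 2 groups did not overlap for 436 of the 437, against 23.2% of all probe sets tested. Among the called, 242 have 1 gene, 63 of them higher and 179 lower. Lower calls were mostly dim: of the 7961 dimmer probe sets 81 were called higher and 224 lower, and of the 7961 brighter ones 57 and 75.

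The split between higher and lower depended on the scaling. On the deposited scale 2092 probe sets (13.1% of those tested) were called higher and 1924 (12.1%) lower, 25.2% in all. With arrays centred on their medians 3453 (21.7%) were called higher and 756 (4.75%) lower, 26.4% in all. Among the 3981 brightest probe sets the median log2 fold change was 0.01 after quantile normalization, 0.34 on the deposited scale and 0.41 after median centring, and among the 3980 dimmest it was 0.00, −0.07 and −0.02. Over all probe sets tested it was 0.01, 0.02 and 0.08. The changes below are therefore relative to the other probe sets of like brightness. Called in the same direction on all 3 scales were 84 higher (0.528%) and 219 lower (1.38%) probe sets. Of the 299 lower calls, 19 changed direction after median centring.

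**Figure D1:**
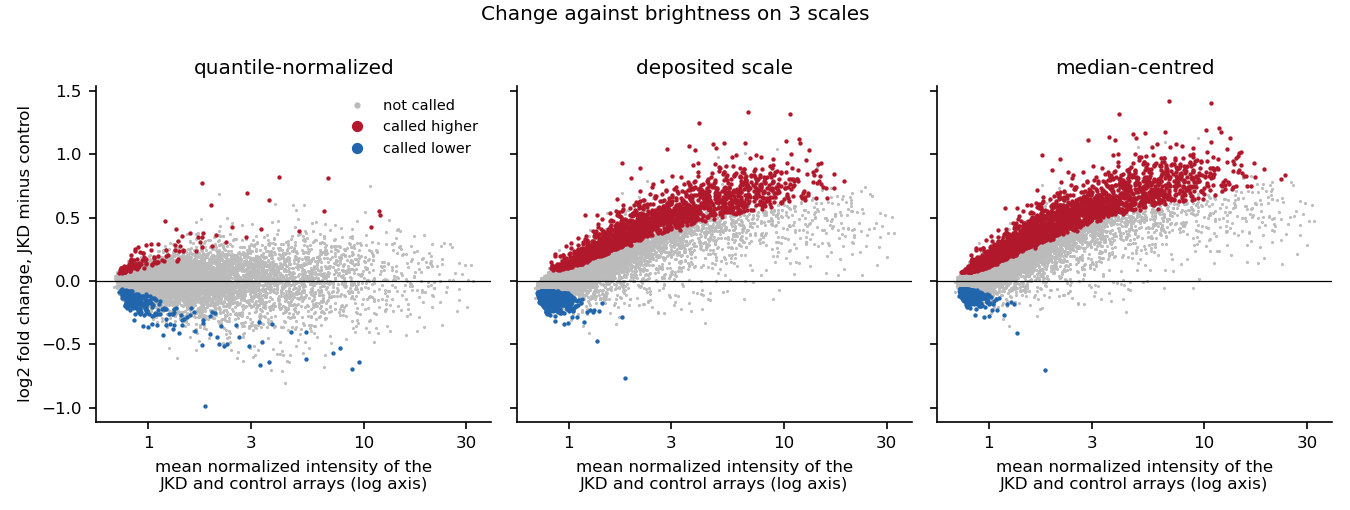
Log2 fold change (JKD minus control) of each tested probe set against its mean normalized intensity (log axis) on 3 scales. Red and blue points are called higher and lower; the cloud is level after quantile normalization (138 higher, 299 lower) and tilts upward with brightness on the deposited (2092, 1924) and median-centred (3453, 756) scales.

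The count also rested on single arrays. Without JKD 1 there were 7 calls and without JKD 3 there were 12. Without JKD 2 there were 219 and without control 1 there were 229. Without control 3 there were 345, and without control 2 there were 677. With the 6 JKD and control arrays alone 12 probe sets were called (0.0754%), all among the 437, 11 higher (0.0691%) and 1 lower (0.00628%), and 2665 had an unadjusted p under 0.05. Whichever single array of the 12 was left out, 5 calls were kept, of which AT4G26880 is the single named gene.

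The leading genes in both directions were chosen among called genes with a mean above the median and groups that do not overlap. For them the lack of overlap is therefore no separate support. Genes higher in the JKD line were led by AT2G23910, which encodes a Rossmann-fold protein related to cinnamoyl-CoA reductases. Its intensity was 4.11, 3.04 and 4.01 in the JKD line, against 2.33, 2.04 and 1.73 in the control. Every JKD array lay above every control array, the means were 3.72 ± 0.588 in the JKD line and 2.03 ± 0.300 in the control (SD, n = 3 each), and the log2 fold change was 0.69 ± 0.10 (limma adjusted p = 0.00890). It grew to 1.04 on the deposited scale and 1.11 after median centring. AT1G70770 was brighter, at 7.85, 9.72 and 6.37 in the JKD line, against 4.67, 5.24 and 5.57 in the control, and rose by 0.55 ± 0.13. JKD 2 was the highest array for AT1G70770 and JKD 3 the lowest of its group, still above all controls.

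The leading higher genes included 3 enzymes of primary metabolism, MDH, AT1G74470 and OTC. MDH, the plastid NAD-dependent malate dehydrogenase, had 3.06, 2.89 and 2.75 in the JKD line, against 2.13, 2.13 and 1.70 in the control. The log2 fold change was 0.43 ± 0.08 (limma adjusted p = 0.0206), with all JKD arrays above all controls. AT1G74470 encodes geranylgeranyl reductase, which makes the phytyl chain of chlorophyll and tocopherol. It had 2.12, 1.89 and 2.35 in the JKD line, against 1.59, 1.36 and 1.44 in the control, and rose by 0.38 ± 0.09. OTC, ornithine transcarbamylase of the arginine pathway in the plastid, had 2.08, 1.95 and 2.22 in the JKD line, against 1.64, 1.54 and 1.27 in the control, and rose by 0.35 ± 0.07. For both genes the groups stayed apart, by a narrower margin than for MDH.

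Other genes among the 15 leading higher ones have varied roles. AT3G17130, of the family of invertase and pectin methylesterase inhibitors, had 1.90, 1.75 and 1.91 in the JKD line, against 1.18, 1.24 and 1.39 in the control (log2 fold change 0.38). AT5G57785 had 1.75, 1.53 and 1.81 in the JKD line, against 1.12, 1.18 and 1.22 in the control (log2 fold change 0.35). AT1G54540, of the late embryogenesis abundant family of hydroxyproline-rich glycoproteins, had 1.41, 1.17 and 1.28 in the JKD line, against 1.03, 0.861 and 0.880 in the control (log2 fold change 0.29). In all of these the JKD arrays lay above the controls without overlap, as the choice required. AT2G46540 rose by 0.39, AT4G29260, a secreted acid phosphatase of the HAD superfamily, by 0.27, AT3G62810 by 0.25 and AT2G46420 by 0.24. AT5G58530, a glutaredoxin, AT4G14615 and AT1G47530, a MATE efflux protein, each rose by 0.24. All 15 genes stayed called on the deposited and the median-centred scale, where their fold changes were larger. On those scales 13.1% and 21.7% of all probe sets tested were called higher. The 3981 brightest shifted up there by medians of 0.34 and 0.41, so these kept calls are not separate support. None of the 15 was called without JKD 1 (adjusted p 0.055 to 0.175) or without JKD 3 (0.0559 to 0.161). Of the 15, 7 were called without JKD 2, 8 without control 1, 11 without control 2 and 8 without control 3.

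**Figure D2:**
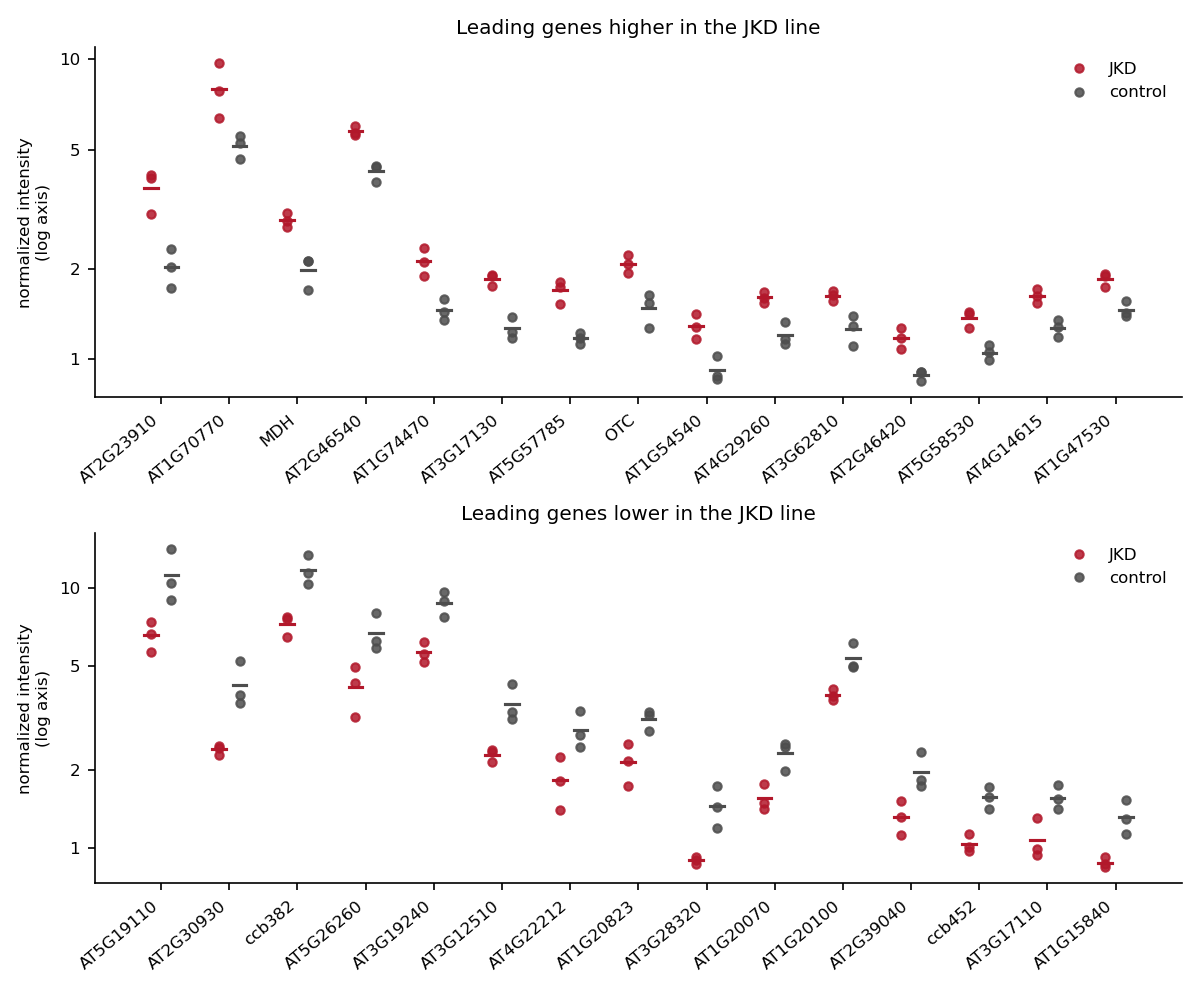
Normalized intensity (log axis) of the 15 leading higher genes and the 15 leading lower genes on the 3 JKD arrays (red, left) and the 3 control arrays (grey, right); bars are group means. Groups that do not overlap were a condition of the choice of these genes. AT2G23910 has the widest gap among the higher genes, with means of 3.72 in the JKD line and 2.03 in the control.

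With the 6 JKD and control arrays alone, 3 named genes were called, all higher. With the replicate number as a block in the same 6 arrays none of the 3 was (adjusted p 0.0625 to 0.079), and 2 probe sets were called in all, against 12 without the block. ATPC1, the gamma subunit of the chloroplast ATP synthase, had 1.01, 1.06 and 1.04 in the JKD line, against 0.794, 0.812 and 0.756 in the control. LIL3:2, a light-harvesting-like protein that anchors geranylgeranyl reductase in the thylakoid, had 1.07, 1.06 and 1.07 in the JKD line, against 0.814, 0.824 and 0.807 in the control. AT4G26880, of the family of the stigma-specific protein Stig1, had 0.899, 0.955 and 0.969 in the JKD line, against 0.684, 0.722 and 0.754 in the control. The replicates of these genes lie close together and the groups are apart. Their log2 fold changes over all 12 arrays were 0.23 ± 0.03, 0.22 ± 0.04 and 0.21 ± 0.02. AT4G26880 kept its call whichever array was left out (adjusted p of 0.0473 without JKD 3). All 3 genes are dim, with control values under the median of all values (0.826). The control values of AT4G26880 average under 0.735, the lowest mean of a tested probe set, so it passed the filter on dim ones through the other groups. None of the 3 was called with intensities under 1 set to 1 and no offset. With the dimmest 50% left out AT4G26880 was not among the probe sets tested. ATPC1 lost its call without JKD 1 (adjusted p = 0.055) or JKD 3 (0.0559). LIL3:2 lost it without JKD 1 (0.107), JKD 2 (0.0583), JKD 3 (0.0886) or control 1 (0.0593).

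Genes lower in the JKD line were led by AT5G19110, an aspartyl protease family gene, and AT2G30930. AT5G19110 had 5.66, 7.41 and 6.63 in the JKD line, against 8.98, 10.4 and 14.1 in the control, a log2 fold change of −0.69 ± 0.17 (limma adjusted p = 0.0462). Control 3 was its highest array. AT2G30930 had 2.43, 2.46 and 2.28 in the JKD line, against 3.86, 3.61 and 5.24 in the control, a log2 fold change of −0.66 ± 0.13 (limma adjusted p = 0.0208). The 3 JKD arrays agree closely for AT2G30930 and lie below all controls. AT5G26260, which encodes a TRAF-like protein, had 4.30, 4.97 and 3.18 in the JKD line, against 5.86, 7.97 and 6.23 in the control. AT3G19240 had 5.57, 6.21 and 5.19 in the JKD line, against 7.70, 8.90 and 9.65 in the control. Their log2 fold changes of −0.61 and −0.57 shrank to −0.08 and −0.01 on the deposited scale and turned to 0.0012 and 0.08 after median centring.

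The rest of the 15 leading lower genes included a defensin-like gene, a peroxidase and a ubiquitin ligase gene. AT4G22212, the defensin-like gene, had 1.81, 2.24 and 1.40 in the JKD line, against 2.45, 2.71 and 3.37 in the control (log2 fold change −0.50). AT2G39040, the class III peroxidase, had 1.31, 1.52 and 1.12 in the JKD line, against 1.83, 2.33 and 1.73 in the control (log2 fold change −0.40). AT1G20823, the RING-type ubiquitin ligase gene, fell by 0.44 and turned to 0.00103 after median centring. AT3G12510 fell by 0.51, AT1G20070 by 0.42, AT3G17110 by 0.35 and AT1G15840 by 0.35, all with the groups apart, as the choice required. AT1G20100 fell by 0.40 but was higher on the deposited scale (0.10) and after median centring (0.18). On the deposited scale 4 of the 15 leading lower genes stayed called, and after median centring 3 did, namely AT3G28320, AT1G15840 and ccb452. None of the 15 was called without JKD 1 (adjusted p 0.0882 to 0.189) or without JKD 3 (0.0777 to 0.167). Of the 15, 11 were called without JKD 2, control 1 or control 2, and 7 without control 3.

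Of the 219 probe sets called lower on all 3 scales, the 10 named genes whose smallest change over the scales was largest are described here. AT3G28320 had 0.925, 0.897 and 0.866 in the JKD line, against 1.20, 1.44 and 1.72 in the control, a log2 fold change of −0.42 ± 0.08 after quantile normalization, −0.33 on the deposited scale and −0.27 after median centring. AT2G06470 had 0.754, 0.824 and 0.770 in the JKD line, against 1.42, 1.06 and 1.15 in the control (log2 fold change −0.36). AT1G64560 had 0.726, 0.754 and 0.746 in the JKD line, against 1.39, 0.999 and 1.08 in the control (log2 fold change −0.36). The JKD values of these genes lie close to the median of all values (0.826), while control 1 was the highest array for AT2G06470 and AT1G64560. The others were AT1G15840, nad2, AT3G23450, AT2G30560, nad7, AT4G07530 and AT1G67870, with log2 fold changes of −0.35 to −0.21. Of the 10, 9 were called without JKD 2, 9 without control 1 and 10 without control 2 or control 3, but 0 without JKD 1 or JKD 3 (limma adjusted p 0.0649 to 0.131 and 0.0559 to 0.12).

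**Figure D3:**
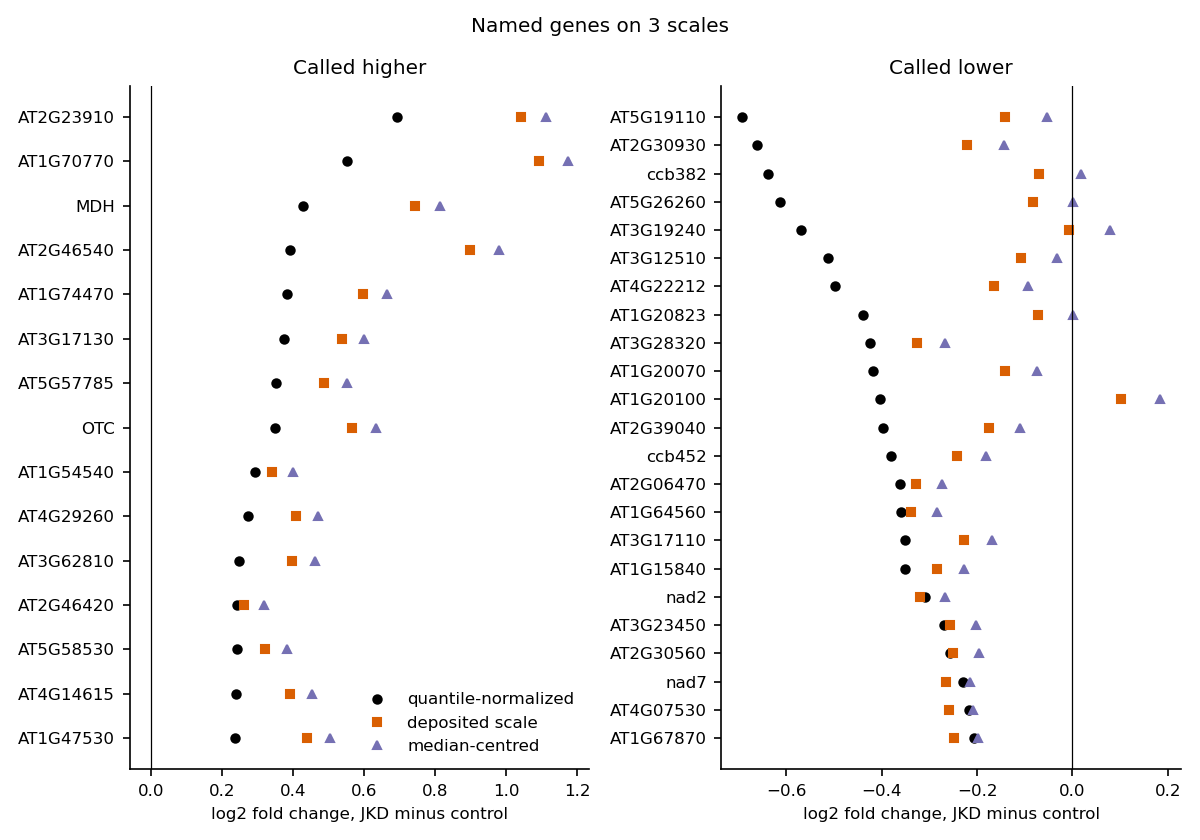
Log2 fold change (JKD minus control) of the leading genes and of those with the same call on 3 scales, after quantile normalization (circles), on the deposited scale (squares) and after median centring (triangles). Higher genes move further up on the other scales, while bright lower genes such as ccb382 and AT3G19240 move to 0 or past it and dim ones such as nad7 and AT1G67870 stay in place.

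Of 18 genes of the SHR, SCR and BIRD network, 5 were named on the array and tested (JKD, BLJ, AT5G41920, AT3G45260 and SLY2), and SHR and SCR were not among them. None of the 5 was called, where 2.74% of all probe sets tested were, so 0 of so few says little. Their log2 fold changes were −0.03 (AT3G45260) to 0.02 (AT5G41920), with a median of 0.00, against 0.01 over all probe sets. SLY2, a gibberellin signalling F-box gene, had 0.730, 0.803 and 0.722 in the JKD line, against 0.733, 0.776 and 0.733 in the control. AT5G41920, the SCR-like gene SCL23, had 0.855, 0.842 and 0.825 in the JKD line, against 0.804, 0.830 and 0.810 in the control. The ranges of the groups overlap for SLY2 and AT5G41920. AT3G45260, of the same zinc finger family as JKD, was called lower on the deposited scale (−0.11, adjusted p = 0.0184) and after median centring (−0.07, adjusted p = 0.0381). Of all probe sets tested 12.1% and 4.75% were called lower on those scales.

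Of the 4 cortex and 3 endodermis markers tested 0 were called. As 2.74% of all probe sets tested were called, 0 of so few markers says little. AT1G61590, GSO1 and the cortex marker AT1G09750 were brighter than the median of all values (0.826), while the cortex markers AT3G21670, AT1G62510 and AT1G62500 lay near it, at means of 0.879, 0.857 and 0.761 in the JKD line and 0.931, 0.809 and 0.766 in the control. Of the 4 cortex markers, AT1G09750, of the aspartyl protease family, had 1.70, 1.81 and 1.75 in the JKD line, against 1.60, 1.52 and 0.995 in the control, a log2 fold change of 0.26 ± 0.10 (limma adjusted p = 0.164). Control 3 stands below the other controls there. Of 3 endodermis markers, GSO1, a receptor kinase of the Casparian strip, had 5.71, 4.69 and 6.59 in the JKD line, against 5.37, 3.58 and 5.12 in the control, and the groups overlap (log2 fold change 0.24, limma adjusted p = 0.535). AT1G61590, an endodermal kinase gene, had 5.55, 5.16 and 6.01 in the JKD line, against 5.62, 5.45 and 6.70 in the control (log2 fold change −0.08). On the deposited scale and after median centring the log2 fold change was 0.48 and 0.56 for AT1G61590, and 0.77 and 0.85 for GSO1. The median of the 3 endodermis markers was 0.02 after quantile normalization, 0.48 on the deposited scale and 0.56 after median centring. The summed intensity of the 4 cortex markers was 4.12 to 4.32 in the JKD line and 3.51 to 4.10 in the control, and that of the 3 endodermis markers was 10.8 to 13.6 in the JKD line and 10.01 to 12.75 in the control. In sorted cells, fewer cells of a type and less RNA per cell cannot be told apart.

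Of the tested markers of neighbouring cell types 0 were called, where 2.74% of all probe sets were, and the markers are few. The sum of the 2 epidermis and root hair markers, EXPA7 and EXPA18, was 1.55 to 1.57 in the JKD line and 1.61 to 2.17 in the control. The sum of the 2 pericycle markers, LBD16 and LBD29, was 1.72 to 1.90 in the JKD line and 1.98 to 2.23 in the control. The stem cell niche marker BBM was 0.770 to 0.811 in the JKD line and 0.859 to 0.926 in the control. The phloem marker OPS was 0.738 to 0.767 in the JKD line and 0.781 to 0.916 in the control. Xylem markers, with sums of 1.82 to 2.07 in the JKD line and 1.79 to 1.93 in the control, overlapped, as did the root cap marker. Of 5 named heat shock genes 3 were tested, with sums of 2.35 to 2.81 in the JKD line and 2.72 to 4.26 in the control, where control 3 was highest. The part of these markers in the changes above was not tested. With the 3 arrays that were high in heat shock genes left out (control 3, BLJ 1 and BLJ 3), 181 probe sets were called.

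In the chlorophyll and tetrapyrrole pathway 1 of 7 tested genes was called, AT1G74470 above. The calls were 1 higher and 1 lower on both other scales, and with the 6 arrays alone 0 were called. Of all probe sets tested 2.74% were called after quantile normalization, 25.2% on the deposited scale and 26.4% after median centring. The upstream enzymes had values near those of the control: GSA1, which makes the precursor aminolevulinate, had 1.47, 1.46 and 1.54 in the JKD line, against 1.61, 1.42 and 1.48 in the control, and HEMB1, which condenses it to porphobilinogen, had 1.65, 1.79 and 1.95 in the JKD line, against 1.77, 1.70 and 1.98 in the control. CHLM, the magnesium protoporphyrin methyltransferase, had a log2 fold change of 0.04, HEME1 of −0.01, HEME2 of 0.01 and PORB, a protochlorophyllide oxidoreductase, of −0.06. The median of the 7 was −0.01. Of the photosystem and antenna genes, 4 were tested and 0 called (1 higher on the deposited scale and 2 after median centring), with PSBY at 1.10, 1.06 and 1.06 in the JKD line, against 0.940, 0.854 and 0.823 in the control (log2 fold change 0.17, limma adjusted p = 0.0567).

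In arginine synthesis 1 of 4 tested genes was called, OTC above, and the median of the 4 was 0.04. There was 1 call on the deposited scale, 2 after median centring, both higher, and 0 with the 6 arrays alone. Over all probe sets tested 2.74% were called, 25.2% on the deposited scale and 26.4% after median centring. AT4G24830, the argininosuccinate synthase, had 1.64, 1.54 and 1.92 in the JKD line, against 1.78, 1.73 and 1.38 in the control. AT5G10920, the argininosuccinate lyase, had 1.02, 0.926 and 1.12 in the JKD line, against 0.985, 0.985 and 0.980 in the control. AT2G37500, the glutamate N-acetyltransferase that leads to ornithine, had a log2 fold change of −0.04. For these genes the groups overlap or lie close together. Of the malate dehydrogenases the second gene tested, AT5G58330, the NADP-dependent enzyme, had 0.762, 0.746 and 0.767 in the JKD line, against 0.772, 0.745 and 0.724 in the control.

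The result for the tricarboxylic acid cycle depended on the scale. Of 11 genes tested 0 were called after quantile normalization, where 2.74% of all probe sets were. On the deposited scale 8 were called higher, and after median centring 8 were, where 13.1% and 21.7% of all probe sets were. Of the 11, 9 had a positive log2 fold change, and the median was 0.09 after quantile normalization, 0.52 on the deposited scale and 0.60 after median centring. IDH-V, a subunit of isocitrate dehydrogenase, had 3.77, 3.68 and 3.72 in the JKD line, against 3.31, 3.31 and 3.22 in the control (log2 fold change 0.15, limma adjusted p = 0.330). AT5G23250, a succinyl-CoA ligase subunit, had 1.53, 1.46 and 1.27 in the JKD line, against 1.25, 1.37 and 1.01 in the control. The JKD arrays lie above the controls for IDH-V, without passing the test.

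Against the control, genes of the 2 organelle genomes were lower more often than higher, with the direction of the plastid list depending on the scale. Of 69 plastid genes tested, 55 had a negative log2 fold change, against 7332 of all 15922 probe sets. The median was −0.08 (but 0.06 on the deposited scale and 0.12 after median centring), and 4 were called lower and 0 higher, where 1.88% of all probe sets were called lower. With the replicate number as a block, 9 were called lower; with the dimmest 50% left out, or with the 6 arrays alone with or without the block, 0 were. rbcL, the large subunit of Rubisco, had 1.32, 1.35 and 1.37 in the JKD line, against 1.81, 1.84 and 1.66 in the control, a log2 fold change of −0.27 ± 0.06 that became 0.0059 after median centring. petN and psbL, small subunits of the cytochrome b6f complex and photosystem II, fell by 0.30 and 0.18, and atpI, a subunit of the chloroplast ATP synthase, had 0.716, 0.712 and 0.689 in the JKD line, against 0.806, 0.843 and 0.891 in the control (log2 fold change −0.14). The JKD values of atpI lie under 0.735, the lowest mean of a tested probe set, so it passed the filter on dim ones through the other groups. The brightest member with a large difference, clpP, a protease subunit, had 9.12, 11.5 and 9.21 in the JKD line, against 12.5, 15.2 and 12.6 in the control, without overlap, but did not pass (log2 fold change −0.41, limma adjusted p = 0.173). On the deposited scale 4 plastid genes were called higher and 3 lower, where 13.1% and 12.1% of all probe sets were. After median centring 7 and 1 were, where 21.7% and 4.75% of all probe sets were. Without JKD 1 or JKD 3 there were 0 calls in the list, without control 2 there was 1, and without control 1 or control 3 there were 2. Without BLJ 1 there was 1, and without SCR 3 there were 2.

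Of 16 mitochondrial genome genes, a list put together after values were seen, 15 had a negative log2 fold change, against 7332 of all 15922 probe sets, and 4 were called lower, against 1.88% of all. The number called lower was 7 on the deposited scale (12.1% of all probe sets), 3 after median centring (4.75% of all), 5 with the replicate number as a block and 0 with the 6 arrays alone. The median of the 16 was −0.10 after quantile normalization, −0.09 on the deposited scale and −0.04 after median centring. ccb382, of cytochrome c maturation, had 6.47, 7.70 and 7.62 in the JKD line, against 11.4, 13.4 and 10.3 in the control, and its log2 fold change of −0.64 became −0.07 on the deposited scale and 0.02 after median centring. ccb452, of the same pathway, had 1.01, 1.13 and 0.977 in the JKD line, against 1.41, 1.72 and 1.57 in the control (log2 fold change −0.38). nad2 and nad7, subunits of respiratory complex I, had log2 fold changes of −0.31 and −0.23. The values of nad2 were 0.694, 0.695 and 0.690 in the JKD line, against 1.24, 0.887 and 0.972 in the control, with control 1 highest. Its JKD values lie under 0.702, the 20th percentile of all values, so nad2 passed the filter on dim probe sets through the other groups. nad4 and cox1 had −0.49 and −0.34 without passing. Without JKD 1 or JKD 3 there were 0 calls in the list.

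Glycine-rich proteins, a list also put together after values were seen and so given with no test, had 8 members tested of 15, all with negative values and 5 called lower (7 on the deposited scale, 6 after median centring and 0 with the 6 arrays alone). Over all probe sets 7332 of 15922 had negative values and 1.88% were called lower (12.1% on the deposited scale and 4.75% after median centring). AT3G23450 had 0.775, 0.829 and 0.792 in the JKD line, against 1.32, 0.984 and 1.03 in the control (log2 fold change −0.27). AT2G30560 had 0.810, 0.747 and 0.761 in the JKD line, against 1.22, 0.910 and 1.07 in the control (log2 fold change −0.26). AT5G61660, AT2G05580 and AT1G67870 had −0.21, −0.26 and −0.21. These genes are dim, and control 1 was the highest control array for AT3G23450 and AT2G30560. The median of the 8 was −0.21 after quantile normalization, −0.21 on the deposited scale and −0.16 after median centring. There were 0 calls without JKD 1, without JKD 3, or with control 3, BLJ 1 and BLJ 3 left out together.

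In the lists of hormone, cell wall and detoxification genes 0 to 2 members were called after quantile normalization. Over all probe sets tested 0.867% were called higher and 1.88% lower. These shares were 13.1% and 12.1% on the deposited scale, and 21.7% and 4.75% after median centring. WES1, a GH3 enzyme that conjugates auxin to amino acids, had 1.21, 1.18 and 0.993 in the JKD line, against 1.43, 1.49 and 1.53 in the control, with all JKD arrays below the controls (log2 fold change −0.26 ± 0.05), and was the single called gene of 3 auxin genes tested. It shrank to −0.12 on the deposited scale and −0.06 after median centring and was lost without JKD 1 (adjusted p = 0.055) or JKD 3 (0.068). Of 16 expansins, proteins that loosen the wall, EXPA8 was called lower, at 1.07, 1.12 and 1.03 in the JKD line, against 1.32, 1.40 and 1.58 in the control, with a list median of −0.03. Expansins called on the deposited scale were 5, all lower, and after median centring 4 lower and 1 higher. Of 8 xyloglucan endotransglucosylases XTH32 was called higher, at 0.964, 0.855 and 0.952 in the JKD line, against 0.716, 0.764 and 0.769 in the control (log2 fold change 0.16), and 3 were called higher on each of the other scales. Of 34 UDP-glycosyltransferases UGT76E2 (−0.21) and UGT88A1 (−0.12) were called lower, and with the replicate number as a block UGT88A1 was not (adjusted p = 0.0584). Of the 34, 6 were called higher and 16 lower on the deposited scale, and after median centring 8 higher and 6 lower. Of 10 cytochrome P450 genes CYP71B34 was called higher, at 1.12, 1.05 and 1.03 in the JKD line, against 0.768, 0.834 and 0.855 in the control. The P450 calls were 2 higher and 1 lower on the deposited scale and 2 higher after median centring. With the 6 arrays alone 0 genes of these lists were called. Without JKD 1 the calls of EXPA8 (adjusted p = 0.132), XTH32 (0.175), UGT76E2 (0.175), UGT88A1 (0.146) and CYP71B34 (0.059) were lost. All of these but CYP71B34 were lost without JKD 3 (0.096 to 0.165) and without control 3 (0.063 to 0.0755), and all but EXPA8 and CYP71B34 without control 1 (0.0834 to 0.11). Without JKD 2 EXPA8 (0.0597), UGT76E2 (0.0618) and UGT88A1 (0.0843) were lost, and without control 2 XTH32 (0.0554). BIM1, a brassinosteroid bHLH gene chosen after its values were seen, averaged 1.75 in the JKD line and 2.21 in the control (log2 fold change −0.25, adjusted p = 0.0489), and turned to 0.05 on the deposited scale and 0.12 after median centring; whichever single JKD or control array was left out, it was not called (adjusted p 0.0527 to 0.15). The gibberellin (4 tested), glutathione transferase (10), tubulin (9) and WRKY (6) lists had 0 calls each, as read against the 2.74% of all probe sets. On the deposited scale and after median centring they had 1 and 2, 1 and 3, 4 and 3, and 0 and 0 calls in that order, where 25.2% and 26.4% of all probe sets were called.

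**Figure D4:**
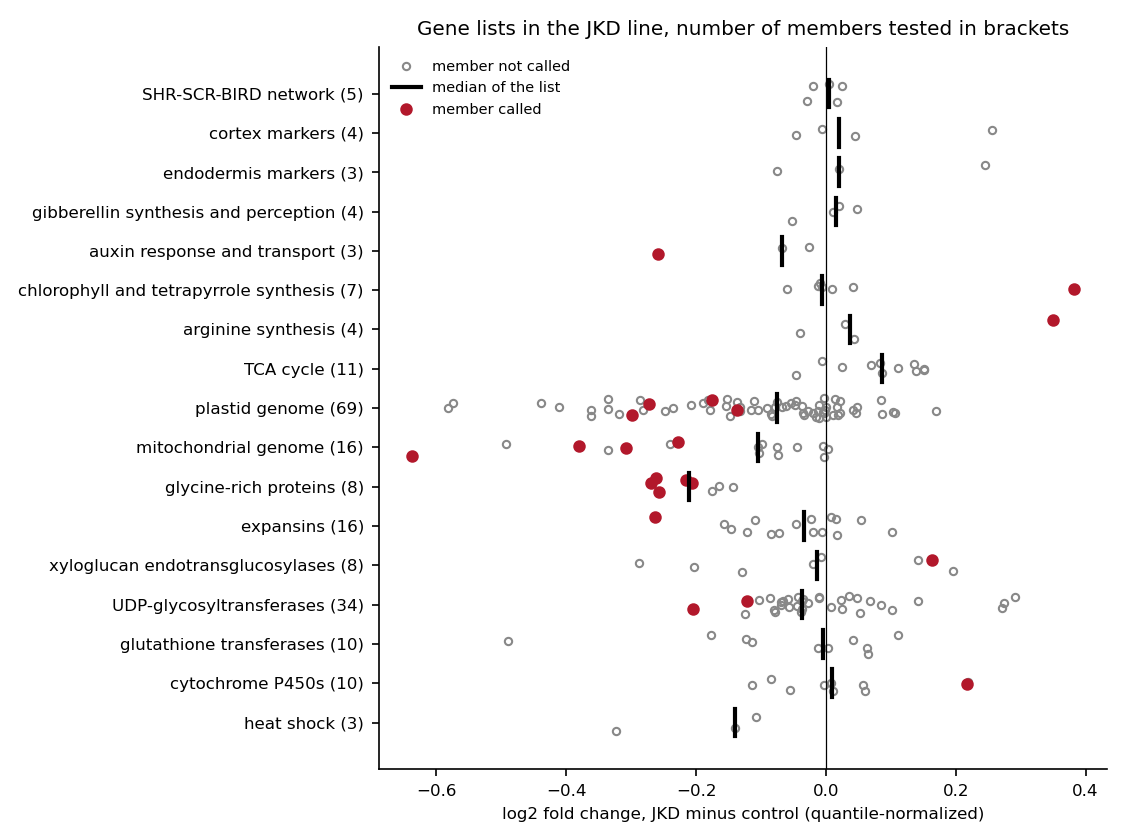
Log2 fold change (JKD minus control, quantile-normalized) of every tested member of 17 gene lists; red points are called, open points are not, and the black bar is the median of the list. The plastid genome, mitochondrial genome and glycine-rich lists have medians of −0.08, −0.10 and −0.21, while the chlorophyll and arginine lists have 1 called member each at 0.38 and 0.35. The plastid median was 0.06 on the deposited scale and 0.12 after median centring. The mitochondrial and glycine-rich lists were put together after values were seen.

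The JKD line was also set against the mean of the BLJ and SCR lines, a contrast that uses no control array in the difference, and 110 probe sets were called (0.691%), 72 higher (0.452%) and 38 lower (0.239%). Of the 110, 37 were also called against the control in the same direction, 29 higher and 8 lower. The 2 contrasts share the JKD arrays. In the chlorophyll, arginine, plastid genome, mitochondrial genome and glycine-rich lists 0 members were called against the other lines, where 0.691% of all probe sets were. The changes given above for these lists are therefore against the control alone. AT2G23910 again stood highest among the named genes, at 3.72 ± 0.588 in the JKD line, 1.19 ± 0.122 in the BLJ line, 1.22 ± 0.0499 in the SCR line and 2.03 ± 0.300 in the control (SD, n = 3 each). Its difference from the BLJ and SCR lines was 1.20 ± 0.09 (limma adjusted p = 3.76e-05), and it stayed called without any single array. AT3G17130 differed by 0.48 ± 0.06 (adjusted p = 0.00216) and AT2G15340 by 0.31 ± 0.04 (adjusted p = 0.00151). AT1G54540 (0.31) and AT3G62810 (0.26) were also higher than the mean of the BLJ and SCR lines. Of these 5 genes, AT2G23910, AT3G17130 and AT2G15340 stayed called against the other lines whichever single array was left out. AT1G54540 was not called without JKD 1 (adjusted p = 0.13) or JKD 3 (0.0973). AT3G62810 was not called without JKD 1 (0.17), JKD 2 (0.106), JKD 3 (0.0779), BLJ 3 (0.0591) or any single SCR array (0.0514 to 0.0553).

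Lower than the mean of both other lines were AT2G30930, AT1G74840, EXPA8 and AT5G27930, the 4 named genes of this kind. AT2G30930 (adjusted p = 0.163) and AT1G74840 (0.407) were not called against the other lines on the deposited scale, nor after median centring (0.271 and 0.553), while EXPA8 and AT5G27930 were. AT1G74840, a MYB-related gene, averaged 3.22 ± 0.0395 in the JKD line, 4.59 ± 0.243 in the BLJ line, 4.81 ± 0.399 in the SCR line and 4.26 ± 0.132 in the control, a difference of −0.46 ± 0.07 from the other lines (limma adjusted p = 0.00933). EXPA8 averaged 1.07 ± 0.0479 in the JKD line, 1.47 ± 0.110 in the BLJ line, 1.45 ± 0.109 in the SCR line and 1.43 ± 0.133 in the control (difference from the other lines −0.29). AT5G27930, a protein phosphatase 2C gene, averaged 0.791 ± 0.00937 in the JKD line, 1.13 ± 0.115 in the BLJ line, 0.870 ± 0.0123 in the SCR line and 0.972 ± 0.0626 in the control. The JKD arrays lie below every BLJ, SCR and control array for all 4 genes. Against the control, AT1G74840 turned to 0.13 on the deposited scale and 0.21 after median centring. None of the 4 was called against the other lines without JKD 1 (adjusted p 0.0871 to 0.177), JKD 2 (0.0571 to 0.114) or JKD 3 (0.0679 to 0.19).

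**Figure D5:**
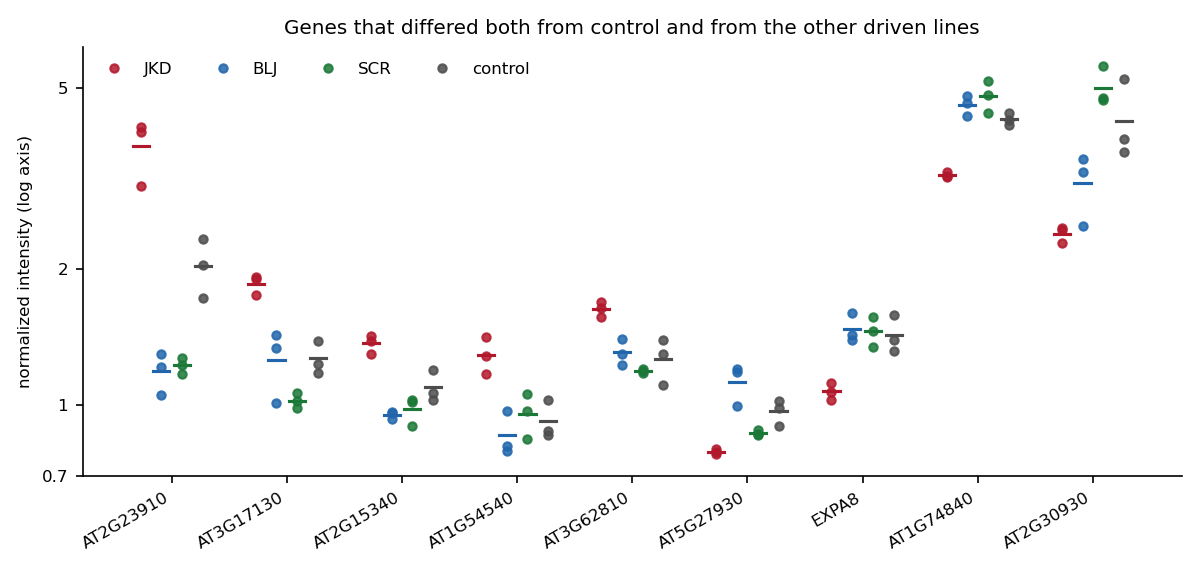
Normalized intensity (log axis) of the 9 named genes that differed both from control and from the BLJ and SCR lines, on the JKD (red), BLJ (blue), SCR (green) and control (grey) arrays; bars are group means. AT2G23910 is higher in the JKD line (mean 3.72) than in all other groups, and AT1G74840 is lower (mean 3.22).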

How the data were processed

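Each deposited value is the linear intensity of 1 probe set on 1 array, made with MAS5 per the submitters' processing notes; version, background correction and scaling were not given. The labels name 2 labelling protocols without saying which array had which, so it was left out of the model. Groups and replicate numbers come from the titles, and 0 columns were left unused.

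Intensities were quantile-normalized between the 12 arrays and log2-transformed after adding 0.7024, the 20th percentile of all values. Control probe sets (55) and the dimmest 30% were left out, leaving 15922. Group means of the 4 lines were compared with limma 3.58.1 (R 4.3.3), with trended, robust empirical Bayes and Benjamini-Hochberg adjustment; a call is an adjusted p under 0.05. Every adjusted p in the text is from limma. The fit was tested on simulated data for JKD against control over 15922 probe sets: of the changed ones it recovered 35 of 67 at a log2 change of 0.25, 44 of 67 at 0.5 and 50 of 66 at 1, and 7 of its 136 calls were false. The simulation had independent noise on each probe set, no difference in spread between arrays and no quantile normalization. Its counts therefore do not give the error rate of the calls on the real arrays. Alternatives were other scalings, offsets, filters, moderation, array weights, a replicate block and arrays left out.

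Same-numbered JKD and control arrays deviated together from their group means (r = 0.283, 0.317 and 0.391), although JKD 1 correlated at 0.355 with control 2; the pairing comes from this check and the shared numbers, and blocked counts stand beside the counts they move by over 1.5 times.

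Names come from the platform annotation, updated with RefSeq symbols (TAIR10.1), for names only. Named genes followed a rule: the driven factors; the 15 highest and 15 lowest called with 1 gene, a mean above the median and groups apart; up to 3 called per list and direction, or the 2 best as values; 10 per direction with the largest change called on 3 scales; those called with 6 arrays alone; and 5 per direction against the other lines. Members and lists were chosen with earlier results of these data known. The p-values measure the spread between labelled biological replicates.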

Additional observations from a re-analysis of the deposited data

How the results depend on the processing

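Against the control the count of 437 calls moved with the scaling, to 4016 (2092 higher, 1924 lower) on the deposited scale and 4209 (3453, 756) after median centring. It was 2 (1, 1) with intensities under 1 set to 1 and no offset, 146 (59, 87) with the dimmest 50% left out, 148 (61, 87) without trended and robust moderation and 181 (64, 117) with control 3, BLJ 1 and BLJ 3 left out. With 6 arrays alone it was 12 (11, 1), and 2 (2, 0) with a replicate block as well, an alternative chosen after seeing the data, where 2996 had an unadjusted p under 0.05. With the replicate block on all 12 arrays 525 were called. Leaving out 1 array gave 7 to 677 calls, 4 to 161 higher and 3 to 516 lower. Of the 55 named calls 54 were kept with the replicate block, with offset 1 and with no filter, 53 with array weights, 40 on the deposited scale, 37 after median centring, 31 with the dimmest 50% left out, 23 without control 3, BLJ 1 and BLJ 3, 22 without trended and robust moderation, 3 with 6 arrays alone, and 0 with these and a block or with intensities under 1 set to 1. Without JKD 1 the number kept was 1, without JKD 3 it was 2, and without any other single array it was 33 to 54. Named genes that turned to higher values after median centring were ccb382 (0.0174), AT1G20823 (0.00103), rbcL (0.0059), AT1G20100 (0.18), AT3G19240 (0.0796), AT5G26260 (0.0012) and AT1G74840 (0.21), and on the deposited scale AT1G20100 (0.10) and AT1G74840 (0.13). Against the BLJ and SCR lines the count of 110 was 189 (85 lower) on the deposited scale, 181 (124 higher) after median centring, 57 (42, 15) with intensities under 1 set to 1, 654 (317, 337) with array weights and 178 (73 lower) with the 9 driven-line arrays alone. With control 3, BLJ 1 and BLJ 3 left out 124 were higher. In this contrast same-numbered arrays had r of 0.0193 to 0.228 with BLJ and −0.19 to 0.252 with SCR. Differently numbered ones reached 0.26 with BLJ and 0.179 with SCR, so whether the numbers pair these arrays is unclear. A replicate block gave 247 (143, 104). Leaving out 1 array gave 40 to 200 calls, 32 to 113 higher and 8 to 87 lower. The causes were not tested. Most values lie near the dim end of the scale, which limits what can be seen of dim genes.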
